A study of Homo sapiens with 2 samples.

Results

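The snoRNA host lncRNAs are long noncoding RNAs whose introns hold small nucleolar RNAs (snoRNAs). They were taken as every row of the count table with a symbol made of SNHG and a number, together with GAS5 and ZFAS1, which gave 23 of the 54261 genes listed. The annotation of GENCODE release 44 lists 22 of them, all as lncRNA, and SNHG24 was the one not matched there. The rule itself uses names, but it was set with earlier results of these data known.

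In a snoRNA host gene, splicing releases an intron, and the intron is trimmed to a snoRNA that guides modification or processing of ribosomal and other RNAs. The spliced exons are exported and can meet ribosomes at short open reading frames near their start. A stop codon followed by a downstream exon junction recruits UPF1 and the other factors of nonsense-mediated decay (NMD), so spliced RNAs of this family, GAS5 among them, are known to be short-lived and to accumulate when translation or NMD is blocked. Their levels are also known to follow growth state, and GAS5 was named for its accumulation in growth arrest.

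The cells were RKO, a human colon carcinoma line. One culture group received a control siRNA (si-NC) and the other with an siRNA against the splicing factor SRSF2 (si-SRSF2), with 1 RNA-seq library each and no other treatment named. SRSF2 is an SR protein that binds exonic enhancers, and the study sequenced these cells to find alternative splicing events that SRSF2 may regulate. With 1 library per group, no value had a replicate, no test was run, and the intervals given here are 95% Clopper-Pearson intervals that cover counting error only.

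The table held 19931360 counts under si-NC and 14512802 under si-SRSF2, and 3 counts, the most that a count of 0 allows by counting error, are 0.151 CPM and 0.207 CPM. EIF4A1, a translation factor that every cell uses, is listed at 0 in both libraries, so a 0 in this table sets no limit on a gene's expression. SRSF2 itself had 98.5 CPM under si-NC and 49.1 CPM under si-SRSF2, so 49.9% of the control level was left. Its log2 ratio was -0.997 (-1.13 to -0.88). The epithelial markers EPCAM, KRT8, KRT18 and CDX2 had between 147 and 632 counts in each library, whereas KRT19 and VIL1 had 1 count each in both libraries and CDH1 had 10 and 6. Of markers a pure epithelial culture should lack, PTPRC had 2 and 0 counts, PECAM1 had 0 in both, COL1A1 had 13 in both and COL1A2 had 8 and 3. Decay was not measured, and in RNA from a whole culture a change in some cells cannot be told apart from a smaller change in all.

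Most members have a short reading frame followed by exon junctions. The first reading frame was taken in the canonical transcript of GENCODE release 44, from the first ATG that has a stop codon in frame. The frames of ZFAS1, SNHG5, SNHG16 and SNHG3 are shown because ZFAS1 had the most CPM of the family, SNHG5 and SNHG16 are among the 5 members with the most CPM, and SNHG3 was the tested member without a late junction. The start and stop codons are in capitals.
ZFAS1: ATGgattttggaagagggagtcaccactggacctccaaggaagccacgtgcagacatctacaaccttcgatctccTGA
SNHG5: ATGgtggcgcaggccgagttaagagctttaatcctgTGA
SNHG16: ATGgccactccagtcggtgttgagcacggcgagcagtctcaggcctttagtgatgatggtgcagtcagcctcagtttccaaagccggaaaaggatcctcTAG
SNHG3: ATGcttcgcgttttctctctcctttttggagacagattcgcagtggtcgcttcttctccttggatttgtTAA

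The canonical transcript of GAS5 has 12 exons, and 5 of its 11 junctions lie more than 50 bases after the stop of the first frame, the distance that marks a stop as premature in the usual NMD rule. The gene lies at chr1:173858559-173868882 on the minus strand of GRCh38. The ZFAS1 frame has 25 codons and 2 late junctions, and the gene lies at chr20:49278178-49299600 on the plus strand. SNHG5, at chr6:85650491-85678932 on the minus strand, has a frame of 12 codons with all 5 junctions late. SNHG1, at chr11:62851978-62855953 on the minus strand, had the most late junctions of the tested members, 7 of 10.

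Over the 18 members that averaged at least 1 CPM, the first reading frame ran from 2 to 67 codons, with a median of 24. A junction more than 50 bases after its stop was present in 17 of these 18 canonical transcripts (94.4%), against 230 of 308 other lncRNAs tested (74.7%). Over all 22 annotated members it was 18 (81.8%), with no reading frame found in SNHG9 and no late junction in SNHG3, SNHG18 and SNHG25. SNHG3 was the exception in its canonical transcript, although 1 of its 3 annotated transcripts has such a junction. The drawing of the spliced transcripts shows the short frames near the 5′ end and the junctions after them. The annotated 3′ ends vary, and transcripts other than the canonical one differ in this measure, with such a junction in 97.8% of 91 GAS5 transcripts and 71.4% of 14 ZFAS1 transcripts.

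**Figure D1:**
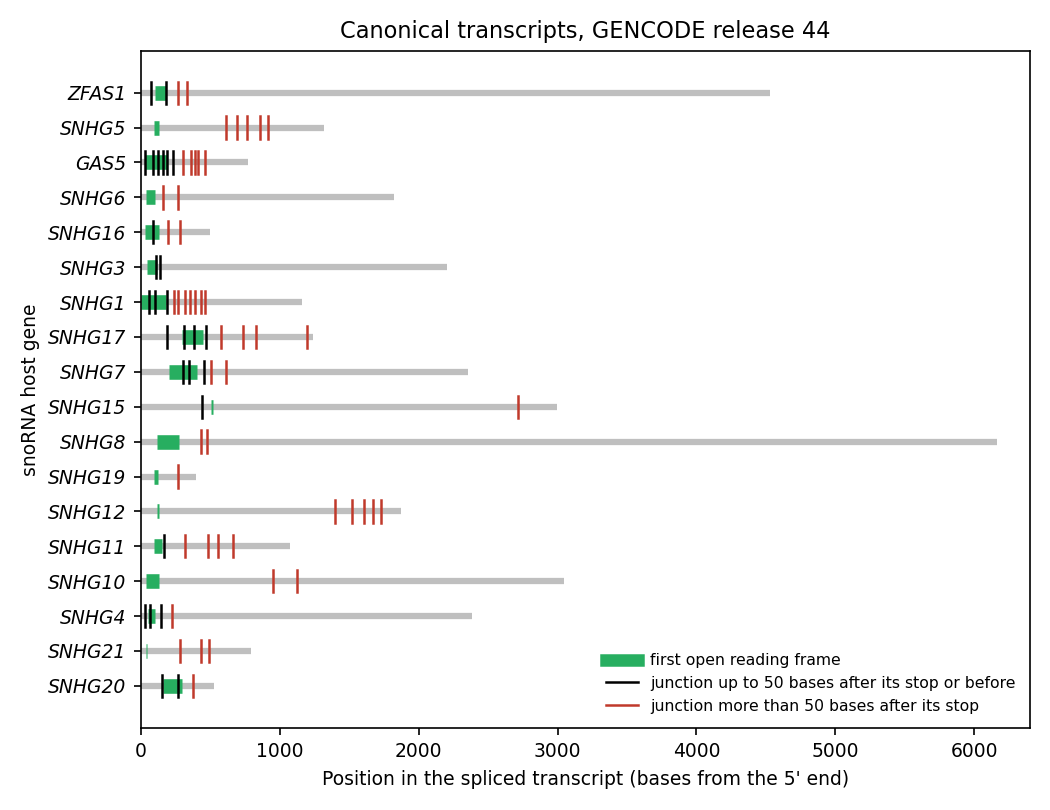
Canonical spliced transcripts of the 18 tested snoRNA host lncRNAs, drawn to scale in bases from the 5′ end, with the first open reading frame in green and exon junctions as ticks. Red ticks lie more than 50 bases after the stop, and they are present in 17 of the 18 genes, with none in SNHG3.

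Host genes for snoRNAs often belong to the TOP class, whose transcripts start within a run of pyrimidines and whose translation follows growth signals. Promoters of RefSeq (GRCh38.p14) were matched for 18 of the 23 members. The letters CTTTC or CTTTT, read on the transcribed strand from 10 bases before to 50 after the start, were present in 8 of these 18 promoters and in 15.9% of all 27305 promoters. On both strands they were present in 9 of 18 and in 27.6%. The letters TATAA were present within the 50 bases before the start in 6 of 18 and in 5.96% of all promoters, and on both strands in 6 of 18 and in 7.61%. Of the 5 promoters with both letter strings, all but that of SNHG12 are shown beside a pair with neither, 50 bases either side of the start, with the first match of each string in capitals.
ZFAS1, chr20:49278592-49278691, plus strand: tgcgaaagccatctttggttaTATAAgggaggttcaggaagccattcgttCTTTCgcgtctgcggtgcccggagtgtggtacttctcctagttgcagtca
SNHG5, chr6:85678684-85678783, minus strand: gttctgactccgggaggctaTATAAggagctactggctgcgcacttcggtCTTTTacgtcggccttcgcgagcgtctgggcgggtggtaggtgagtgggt
SNHG8, chr4:118278712-118278811, plus strand: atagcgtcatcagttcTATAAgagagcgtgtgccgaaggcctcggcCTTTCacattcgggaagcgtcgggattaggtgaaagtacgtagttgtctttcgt
SNHG19, chr16:2155309-2155408, minus strand: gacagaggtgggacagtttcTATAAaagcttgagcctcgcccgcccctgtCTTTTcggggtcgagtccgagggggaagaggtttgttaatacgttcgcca
SNHG3, chr1:28505893-28505992, plus strand: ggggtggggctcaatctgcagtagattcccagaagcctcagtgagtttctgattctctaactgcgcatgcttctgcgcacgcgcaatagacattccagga
SNHG17, chr20:38435279-38435378, minus strand: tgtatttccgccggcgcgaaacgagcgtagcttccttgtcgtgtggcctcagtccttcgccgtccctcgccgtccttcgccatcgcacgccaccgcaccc

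In ZFAS1, SNHG5 and SNHG19 the run begins at the first transcribed base of the RefSeq start used for the window. The annotated ZFAS1 gene begins further upstream, at chr20:49278178, so for ZFAS1 this holds for that start only. These letters are a description of the windows and do not show that a factor binds or that a transcript behaves as a TOP mRNA. The 8 tested members with the run had log2 ratios from -0.0065 to 0.51 with a median of 0.14. Of the 8, 7 were above 0, against 46.2% of all genes. The 8 tested members with a promoter but no run had ratios from -0.34 to 0.73 and the same median of 0.14. Of these, 4 of 8 were above 0, against the same 46.2%. The medians with and without the run were thus alike, with a wider range without it.

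For most tested members, RNA levels in the si-SRSF2 library were close to those in si-NC or somewhat above. The lowest was SNHG11 at 77.4% of its si-NC level and the highest SNHG20 at 184%, both with under 100 counts in a library. The counts of all 23 members summed to 24131 under si-NC and 19491 under si-SRSF2, which is 1211 and 1343 CPM (counts scaled to a common library size by TMM). The log2 ratio of these sums was 0.15 (0.12 to 0.18). ZFAS1 alone held the largest part, and the ratio was 0.11 (0.08 to 0.14) without it. Log2 ratios of single genes were taken after adding 0.5 CPM to each level, which pulls the ratios of the least abundant members toward 0, and their intervals are on the counts without that addition.

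The median log2 ratio of the 18 tested members was 0.14, with the middle 50% between -0.01 and 0.28. Over all 12620 genes tested the median was -0.02, with the middle 50% between -0.19 and 0.15. Of the 18 members, 12 (66.7%) had a ratio above 0, against 46.2% of all genes. The counting interval lay above 0 for 7 members (38.9%), against 21.0% of all genes, and below 0 for 0 members, against 26.7%. How often an interval leaves out 0 also depends on a gene's counts. A difference of at least 1.5-fold was rare. In the higher direction only SNHG20 reached it, 1 of 18 (5.56%) against 4.18% of all genes. In the lower direction 0 of 18 did, against 3.52%. With 2 CPM added in place of 0.5 CPM, SNHG20 no longer reached it.

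**Figure D2:**
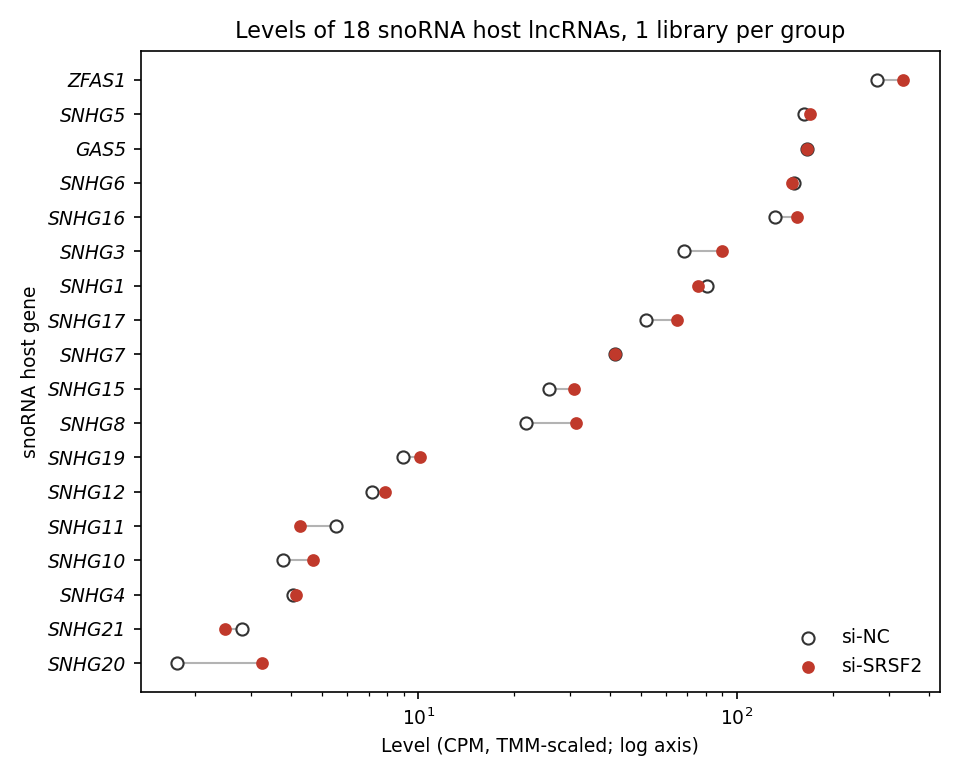
Level of each of the 18 tested snoRNA host lncRNAs in CPM (TMM-scaled, log axis), with si-NC as open circles and si-SRSF2 as filled circles, 1 library each. ZFAS1 is highest at 275 and 333 CPM and SNHG20 lowest by the mean of both libraries, at 1.76 and 3.24 CPM.

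**Figure D3:**
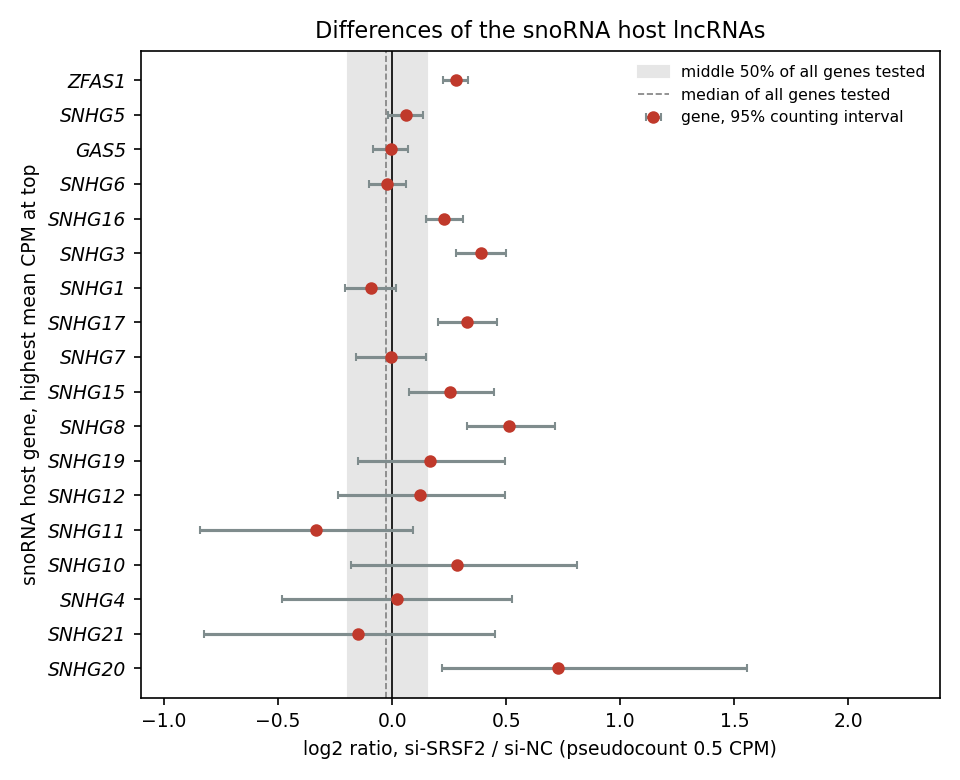
Log2 ratio (si-SRSF2 over si-NC) for the same 18 genes, with 95% counting intervals, beside the middle 50% of all genes tested (grey) and their median of -0.02 (dashed). The intervals of 7 genes lie above 0 and those of the other 11 span 0.

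Among hosts of C/D box snoRNAs, which guide methylation of ribosomal RNA, ZFAS1 and SNHG16 were higher in si-SRSF2, and the intervals of the other 5 spanned 0. ZFAS1, a transcript that starts beside the 5′ end of ZNFX1 and hosts the SNORD12 family, had 5474 counts under si-NC and 4836 under si-SRSF2, or 275 and 333 CPM. Its log2 ratio was 0.28 (0.22 to 0.33), at the 85.9th percentile of all genes tested. SNHG16, host of SNORD1A, SNORD1B and SNORD1C, had 132 and 155 CPM, a log2 ratio of 0.23 (0.15 to 0.31). Both sat above the middle 50% of all genes.

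GAS5, which hosts 11 snoRNAs and can also bind the glucocorticoid receptor, had 3316 counts under si-NC and 2404 under si-SRSF2. These are 166.4 and 165.6 CPM, so the 2 libraries differed by less than the counting error, with a log2 ratio of -0.0065 (-0.08 to 0.07). SNHG5, host of SNORD50A and SNORD50B, had 163 and 169.8 CPM, a log2 ratio of 0.06 (-0.02 to 0.14). SNHG6, host of SNORD87, had 151 and 149 CPM, a log2 ratio of -0.02 (-0.10 to 0.06). For these abundant members the counting error leaves room for differences of at most 0.14 on the log2 scale in either direction.

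SNHG1, host of SNORD22 and SNORD25 to SNORD31, had 1602 counts under si-NC and 1094 under si-SRSF2, or 80.4 and 75.4 CPM. Its log2 ratio was -0.09 (-0.20 to 0.02), the lowest of the C/D hosts. SNHG19, host of SNORD60, had 8.98 and 10.1 CPM, and its log2 ratio of 0.16 had an interval from -0.15 to 0.50. The median over these 7 hosts was 0.06, and 2 of the 7 intervals lay above 0, against 21.0% of all genes.

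Among hosts of H/ACA box snoRNAs, which guide the conversion of uridine to pseudouridine, 6 of 8 tested had a ratio above 0, against 46.2% of all genes. SNHG8, host of SNORA24, had 435 counts under si-NC and 455 under si-SRSF2 although the second library was shallower. In CPM these are 21.8 and 31.3, a log2 ratio of 0.51 (0.33 to 0.72), at the 94.5th percentile of all genes tested. SNHG3, host of SNORA73A and SNORA73B, had 68.5 and 89.8 CPM, a log2 ratio of 0.39 (0.28 to 0.50) at the 91.0th percentile. SNHG17, host of SNORA71A to SNORA71D, had 51.7 and 65.0 CPM, a log2 ratio of 0.33 (0.20 to 0.46). These 3 had the largest ratios among members with at least 100 counts in each library.

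SNHG15, host of SNORA9, had 25.8 and 30.9 CPM, a log2 ratio of 0.25 (0.07 to 0.44). SNHG7, host of SNORA17A and SNORA17B, had 41.4 and 41.3 CPM, a log2 ratio of -0.0036 (-0.16 to 0.15). SNHG12, with 3 H/ACA snoRNAs and SNORD99 in its introns, had 7.18 and 7.85 CPM, a log2 ratio of 0.12 (-0.24 to 0.50). SNHG4, host of SNORA74A, had 4.06 and 4.13 CPM, a log2 ratio of 0.02 (-0.48 to 0.52). SNHG7 thus stood at the control level within a counting error of 0.16, while the intervals of SNHG12 and SNHG4 were too wide to place them.

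SNHG11, which hosts SNORA60 and SNORA71E, had the lowest ratio of all tested members. It had 110 counts under si-NC and 62 under si-SRSF2, or 5.52 and 4.27 CPM, a log2 ratio of -0.34 (-0.84 to 0.09). Since its interval included 0, no difference was detectable at this depth. The median over the 8 H/ACA hosts was 0.19, and 4 of the 8 intervals lay above 0, also against 21.0%. Whether H/ACA and C/D hosts differ was not tested, and their ranges, -0.34 to 0.51 and -0.09 to 0.28, overlapped.

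Hosts of the small Cajal body RNAs, which guide modification of spliceosomal RNAs, were among the members with the fewest counts. SNHG20, host of SCARNA16, had 35 counts under si-NC and 47 under si-SRSF2, or 1.76 and 3.24 CPM. Its log2 ratio was 0.73 (0.22 to 1.56), the largest of the family at this pseudocount and at the 97.5th percentile of all genes tested. SNHG10, host of SCARNA13, had 75 and 68 counts, or 3.76 and 4.69 CPM, a log2 ratio of 0.28 (-0.18 to 0.81). SNHG21, host of SCARNA15, had 56 and 36 counts, or 2.81 and 2.48 CPM, a log2 ratio of -0.15 (-0.83 to 0.45). Of these 3, SNHG20 was the one whose interval excluded 0.

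The other 5 members did not reach a mean of 1 CPM. SNHG9 had 6 counts under si-NC and 1 under si-SRSF2, and SNHG22 had 0 and 3. SNHG18, SNHG24 and SNHG25 are listed at 0 in both libraries, as is EIF4A1, so no limit on their expression was drawn. SNORD104, the snoRNA inside SNHG25, had 17 and 14 counts while its host had 0.

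Levels of different genes can be compared only per length, and the annotated lengths of these genes vary widely. Per kb of the median annotated transcript, ZFAS1 was highest with 400.4 CPM per kb under si-NC and 486 under si-SRSF2, followed by SNHG6 with 291 and 286, GAS5 with 228 and 227, and SNHG5 with 147 and 154. Per kb of the canonical transcript, SNHG16 came first with 265 and 311 CPM per kb, followed by GAS5 with 217 and 216. ZFAS1 then had 60.7 and 73.6, because its canonical transcript has 4526 bases against a median of 686. The order of the levels therefore depends on which transcripts are made, which gene counts do not show.

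Several members share exonic sequence with another gene, and the strand setting of the counting is not stated, so reads there could belong to either. SNHG3 shares 11% of its canonical exons with RCC1 on the same strand, and the log2 ratio of RCC1 was -0.15 (-0.26 to -0.04), opposite in sign to that of SNHG3. SNHG8 shares 40.3% with PRSS12 on the opposite strand, whose log2 ratio was -0.01. SNHG20 shares 42.2% with SEC14L1 on the same strand, with a log2 ratio of 0.03. How reads in the shared exons were assigned was not tested, and the ratios of the partner genes do not show it.

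SNHG6 shares 81.7% of its canonical exons with MCMDC2 on the opposite strand, which had 4 and 5 counts. ZNFX1, which starts beside ZFAS1 in the opposite direction, had 1355 and 1240 counts and a log2 ratio of 0.33. The 7 tested members whose canonical exons touch no other gene's exons had a median of 0.16, with 4 of 7 above 0. The 11 others had 0.12, with 8 of 11 above 0. Over all genes, 46.2% were above 0. The medians of both sets lay above the -0.02 of all genes.

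The members also differ in how many late junctions they have. The 4 tested members with at least 5 such junctions, GAS5, SNHG1, SNHG5 and SNHG12, had ratios from -0.09 to 0.12 with a median of 0.03. The other 14 had a median of 0.24, and all 7 intervals above 0 were among them. Over all genes, 21.0% of the intervals lay above 0. This split was made after the values were seen, and it was not tested.

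The plot of cumulative ratios sets the family beside other lncRNAs, which had a wider spread. The 308 other lncRNAs tested had a median of 0.09 with the middle 50% between -0.24 and 0.31, and 10435 protein-coding genes had a median of -0.04. Among the other lncRNAs, 55.2% were above 0, against 46.2% of all genes. Of the 308, intervals lay above 0 for 61 and below 0 for 45, against 21.0% and 26.7% of all genes. At least 1.5-fold higher were 9.74% of these lncRNAs, and 6.82% were at least 1.5-fold lower. With a late junction after the first frame their median was 0.04 (230 genes), and without one it was 0.13 (78 genes). The middle 50% of the snoRNA hosts lay inside that of the other lncRNAs.

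**Figure D4:**
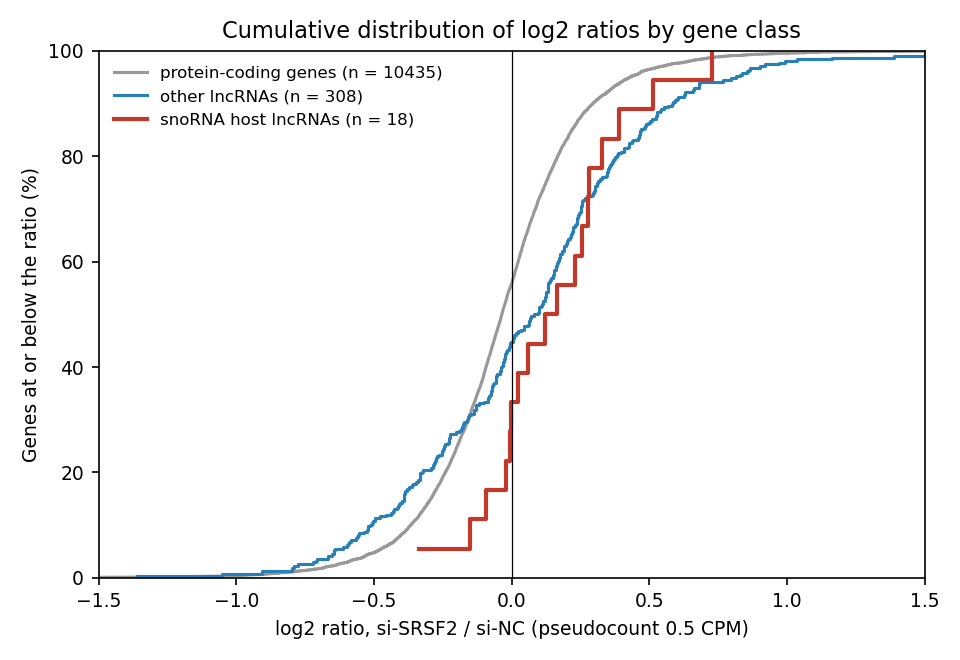
Cumulative share of genes (%) against the log2 ratio (si-SRSF2 over si-NC) for the 18 snoRNA host lncRNAs (red), 308 other lncRNAs (blue) and 10435 protein-coding genes (grey). The medians are 0.14, 0.09 and -0.04, and the red curve has no gene below -0.34.

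Genes of the decay pathway itself lay on both sides of control. All 24 listed genes of the NMD machinery were tested, and the median was 0.03. Of these, 14 had a ratio above 0, against 46.2% of all genes. None was 1.5-fold different, against 4.18% higher and 3.52% lower among all genes. UPF1, the helicase at the centre of the pathway, had 105 CPM under si-NC and 86.1 CPM under si-SRSF2, a log2 ratio of -0.28 (-0.39 to -0.18). MAGOH, a core protein of the exon junction complex, had 36.3 and 50.6 CPM, a log2 ratio of 0.47 (0.33 to 0.63), and its near-identical copy MAGOHB had a ratio of -0.23 (-0.53 to 0.04). The other largest differences were DHX34 at 0.32, SMG9 at 0.23 and the decapping enzyme DCP2 at -0.26. The intervals lay above 0 for 6 of the 24 genes and below 0 for 6, against 21.0% and 26.7% of all genes.

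Other transcripts known to be degraded by NMD lay on both sides of control. Of 14 such genes, 5 were above 0 and 9 below, against 46.2% above 0 over all genes, and the median was -0.09. Their intervals lay above 0 for 4 and below 0 for 6, against 21.0% and 26.7% of all genes. The lowest were GADD45B at -0.53 (-0.72 to -0.36), RP9P at -0.52 and CARS at -0.50, and the highest were DDIT3 at 0.23, GADD45A at 0.20 and NAT9 at 0.17. GADD45A and GADD45B, related stress genes and both known NMD targets, thus lay on opposite sides of 0. UPF1 and SMG5 were counted in this list as well as in the machinery.

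Protein-coding genes that also carry snoRNAs in their introns had small ratios, and EIF4A1 was among the 3 not tested. Of the 37 listed, 34 were tested, 23 were above 0 (67.6%), and the median was 0.06. None differed by 1.5-fold, against 4.18% higher and 3.52% lower among all genes. HSPA8 had the highest ratio, 0.26 (0.23 to 0.29), followed by RPL23A at 0.25 and EEF2, the translation elongation factor, at 0.23. EEF1B2 at -0.27, CWF19L1 at -0.20 and RCC1 at -0.15 were the lowest. The share above 0 stood beside 66.7% of the noncoding hosts and 46.2% of all genes, and the intervals lay above 0 for 18 of the 34 and below 0 for 8, against 21.0% and 26.7% of all genes. RPL23A, with 553 and 480 counts, and EEF1B2, with 321 and 193, are known as highly expressed genes, and whether their rows hold all of their reads was not tested.

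Proteins of the snoRNA particles had 5 of 16 tested genes above 0, against 46.2% of all genes, and a median of -0.06. The intervals of 4 lay above 0 and those of 4 below, against 21.0% and 26.7%. Among those with a mean of at least 5 CPM, RUVBL2 and RUVBL1, helicases of particle assembly, were both at 0.29 and the pseudouridine synthase DKC1 at 0.19, while the assembly factor ZNHIT6 was at -0.35, SHQ1 at -0.25 and GAR1 at -0.20. FBL, the methyltransferase of C/D particles, was the one gene at least 1.5-fold lower, 1 of 16 (6.25%) against 3.52% of all genes. However, it is listed with 31 and 10 counts. FBL is known as an abundant gene of dividing cells, and whether this row holds all of its reads was not tested, so its ratio is not read as that of the gene.

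Noncoding snoRNA hosts outside the naming rule were mixed. DANCR, also called SNHG13, had 21.2 CPM under si-NC and 14.9 CPM under si-SRSF2, a log2 ratio of -0.49 (-0.75 to -0.27), lower than any tested member. LRRC75A-AS1, also called SNHG29, had 379.6 and 418 CPM, a log2 ratio of 0.14 (0.09 to 0.19). EPB41L4A-AS1 was at 0.07 (-0.16 to 0.29) and LINC00888, also called SNHG33, at -0.04 (-0.39 to 0.30). Choosing hosts by the symbols in the table left out these genes, among them DANCR, the only tested noncoding host of either set whose interval lay below 0.

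Most snoRNAs inside the hosts are listed under their own symbols. RefSeq places 56 small RNAs inside 22 of the hosts, and 53 of them have a row in the table. Poly(A) selection and fragment size keep few mature snoRNAs, and intron reads of the host cannot be told apart from them in such a library. Of the 53, 10 had no count in either library. The counts of all 53 summed to 915 under si-NC and 601 under si-SRSF2, or 45.9 and 41.4 CPM, a log2 ratio of -0.15 (-0.30 to 0.00). The 13 with a mean of at least 1 CPM had a median of 0.08. Of these, 7 were above 0 and 6 below, against 46.2% of all genes above 0.

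The interval lay below 0 for 3 of these 13, against 26.7% of all genes tested, and above 0 for 1, against 21.0%, so neither count stood out. The 3 below 0 are shown, with the C box TGATGA and D box CTGA of the C/D snoRNAs and the ACA of the H/ACA snoRNA in capitals. All 3 are on the minus strand of GRCh38 (sequence of hg38 at the RefSeq coordinates).
SNORD80 in GAS5, chr1:173864833-173864903: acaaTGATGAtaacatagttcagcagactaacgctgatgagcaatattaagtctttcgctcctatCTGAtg
SNORD25 in SNHG1, chr11:62855565-62855631: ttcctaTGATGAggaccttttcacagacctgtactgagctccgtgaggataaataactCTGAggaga
SNORA9 in SNHG15, chr7:44985378-44985510: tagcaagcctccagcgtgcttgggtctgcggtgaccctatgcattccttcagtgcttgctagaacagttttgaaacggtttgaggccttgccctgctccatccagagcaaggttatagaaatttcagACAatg

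SNORD80 had 141 counts under si-NC and 48 under si-SRSF2, a log2 ratio of -0.99 (-1.60 to -0.62), while its host GAS5 stood at -0.0065. SNORD25 had 139 and 59 counts, a log2 ratio of -0.71 (-1.24 to -0.33), with its host SNHG1 at -0.09. SNORA9 had 49 and 10 counts, a log2 ratio of -1.32 (-2.98 to -0.84), with its host SNHG15 at 0.25. These 3 were chosen for intervals below 0, so their distance from the hosts is a description.

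The neighbours in GAS5 and SNHG1 that averaged 1 CPM or more had intervals that spanned 0, while SNORD26 in SNHG1, under that level with 15 and 3 counts, had an interval from -4.29 to -0.043. SNORD44 and SNORD74 in GAS5 were at -0.08 (-0.98 to 0.74) and 0.20 (-0.48 to 0.97), and SNORD22, SNORD31 and SNORD28 in SNHG1 at -0.04 (-0.76 to 0.65), 0.20 (-0.24 to 0.67) and 0.40 (-0.26 to 1.26). The 11 GAS5 snoRNAs summed to 240 and 133 counts, a log2 ratio of -0.39 (-0.71 to -0.08), of which SNORD80 made up the larger part in si-NC. SNORA73A in SNHG3 was the one of the 13 with an interval above 0, at 0.62 (0.02 to 1.58) from 27 and 34 counts, beside 0.39 for its host. Under 1 CPM, SNORA71D in SNHG17 (1 and 9 counts) and SNORD1A in SNHG16 (3 and 9 counts) also had intervals above 0. The snoRNAs of SNHG17 summed to 99 and 71 counts, a log2 ratio of -0.02 (-0.48 to 0.43), with their host at 0.33.

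**Figure D5:**
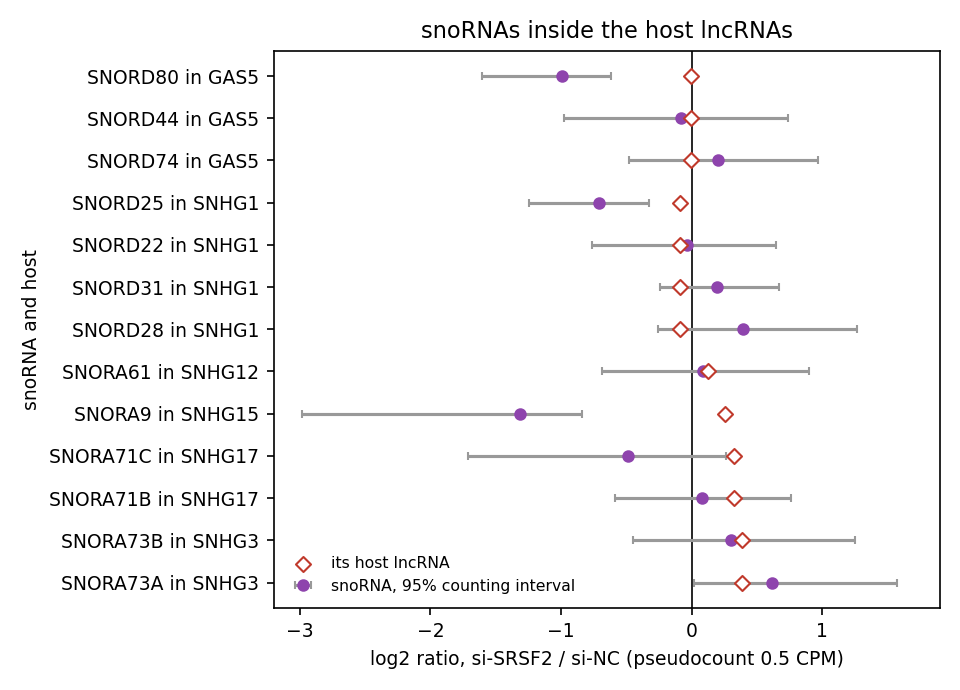
Log2 ratio (si-SRSF2 over si-NC) for the 13 snoRNAs with a mean of at least 1 CPM (purple, 95% counting intervals), grouped by host, beside the ratio of the host lncRNA (open red diamonds). SNORD80, SNORD25 and SNORA9 lie at -0.99, -0.71 and -1.32, left of hosts at -0.0065, -0.09 and 0.25.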

How the data were processed

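RNA-seq of RKO cells gave 1 library for si-NC and 1 for si-SRSF2, prepared from poly(A) RNA with strand information and sequenced as pairs of 150 bp. Reads were aligned by the authors to GRCh38 (HISAT2 2.0.4 in the submitters' processing notes) with the Ensembl 100 annotation named. The authors deposited raw counts per gene, made with HTSeq and listed by symbol. Which strand setting HTSeq ran with is not given in the sources used here. Nothing states separate cultures or repeats, and 0 per-sample columns were left unused.

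Counts were scaled by TMM in edgeR 4.0.16 (R 4.3.3) and given as CPM. Log2 ratios used a pseudocount of 0.5 CPM, and the 12620 genes averaging 1 CPM or more, called tested here, were compared by size of difference only, since 1 library per group allows no test. Intervals (SciPy 1.17.1) were 95% Clopper-Pearson intervals on the counts. They held the true ratio for 95.3% of 12593 genes in data simulated for this comparison, of which 200 were changed. The simulated counts held counting error only, which the intervals assume, so this says nothing on variation between cultures.

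The members and lists were chosen with earlier results of these data known. Full values were given for GAS5, ZFAS1 and the 5 highest and 5 lowest members by ratio, and the ratio at least for the 3 highest and 3 lowest genes of each list averaging 5 CPM or more. Other genes, the promoter letters, the grouping of hosts, the split by junctions and the snoRNAs shown were chosen after values were seen. Transcripts came from GENCODE release 44, promoters and snoRNA positions from RefSeq. The scaling was replaced by upper-quartile factors, by total counts or by size factors of DESeq2 1.42.0, the pseudocount by 0.1 or 2 CPM, and the filter by none or by a minimum average of 5 CPM. Leaving out members with exon overlap, and those under 100 counts in a library, were added after seeing the data. The results for 1 sequence and 1 gene are not reported here.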

Additional observations from a re-analysis of the deposited data

How the results depend on the processing

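The median log2 ratio of the snoRNA host lncRNAs ran from 0.12 with a pseudocount of 2 CPM to 0.17 with upper-quartile factors. The ratio of their summed counts ran from 0.15 to 0.17. Upper-quartile factors put 15 of 18 above 0, and they also moved the median of all genes from -0.02 to -0.0014. The 46.2% of all genes above 0 was taken with TMM. The number at least 1.5-fold higher, 1 gene (SNHG20), became 0 with a pseudocount of 2 CPM and 0 when an average of 5 CPM was required, a filter that removes SNHG20 and leaves 13 members. The number above 0 was 4 of 7 without members that overlap exons of another gene, against 46.2% of all genes. Fewer members entered there. All 95 ratios of single genes under 5 settings stayed within their counting intervals. No paired analysis was possible because the series held a single library for each siRNA, and for the same reason no library could be left out. Depth limited the 5 tested members with under 100 counts in a library, whose intervals reached from -0.84 to 1.56.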
